A study of Mus musculus with 2 samples.

Results

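Gamma-delta T cells are T lymphocytes whose antigen receptor pairs a gamma with a delta chain in place of the alpha and beta chains of CD4 and CD8 T cells. In the mouse many leave the thymus already committed, either to interleukin 17 or to interferon gamma and cytotoxic granules. In tumours the interleukin 17-producing kind is known for recruiting and activating myeloid cells. The cells described here number 109 among 22639 kept single cells. They were chosen by their transcripts, counted as unique molecular identifiers (UMIs, 1 per captured RNA molecule). Cells entered with 300 genes and 500 UMIs or more, and with no more than 15% of UMIs from mitochondrial genes. A kept cell was counted as gamma-delta with at least 2 UMIs of Trdc, the constant region of the delta chain, at least 2 UMIs of the CD3 genes Cd3d, Cd3e and Cd3g together, none of Foxp3 and at most 1 of Cd8a and Cd8b1. The complement genes C1qa, C1qb and C1qc, which macrophages carry, had to stay below 0.3% of its UMIs.

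The cells came from tumours of MC38, a mouse colon carcinoma line, grown in SPP1fl/fl-Lyz2-icre mice (called Lyz2-icre here) and in SPP1fl/fl mice (called control). Both genotypes carry floxed Spp1, the gene of the secreted protein osteopontin, and the Lyz2-icre allele adds a Cre recombinase that is driven in macrophages, monocytes and neutrophils. Spp1 transcripts checked the labels, at 2.58 CPM in Lyz2-icre and 457 CPM in control macrophages. Live CD45-positive leukocytes were sorted and profiled with 10x Genomics 3-prime chemistry, in 1 library per genotype. The labels used here give neither the age and sex of the mice nor their number, and no difference between genotypes could be tested. Of 13915 kept Lyz2-icre cells 47 were members, and of 8724 kept control cells 62 were members. These cells held 179194 UMIs in the Lyz2-icre library and 285479 UMIs in the control library, with medians of 2420 UMIs (1259 to 15262) and 3828.5 UMIs (1776 to 12373) per cell. The libraries shared 43 barcodes, and none of them belonged to a gamma-delta T cell. Levels are in CPM, a gene's UMIs per 1000000 UMIs summed over a set of cells. All intervals are 95% intervals that cover counting error only, not the spread between mice or between cells.

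Il17a, the gene of interleukin 17A, and its neighbour Il17f are the cytokine genes these cells are known for, and their promoters are shown because the type 17 description turns on them. Il17a lies on chromosome 1 from 20730905 to 20734496 on the plus strand, and Il17f on chromosome 1 from 20777146 to 20790617 on the minus strand (GENCODE vM21 on GRCm38). The nuclear receptor half-site AGGTCA, which the receptor encoded by Rora can bind, was searched on both strands of the windows of 300 bases that RefSeq gives around gene starts (250 bases before to 50 after, GRCm38.p6). It was found in 16.3% of all 32851 windows, and in those of 6 of 16 genes with a window from a list of 20 type 17 genes (Il17a, Il17f, Il23r, Ccr6, Scart2 and Actn2). A gene can have several windows, such as 3 for Scart2 and 2 for Ccr6. The share of windows and the count of genes are therefore not directly comparable. The sequences below run 5′ to 3′ on the strand of the gene, chr1:20730655-20730954 on the plus strand for Il17a and chr1:20784221-20784520 on the minus strand for Il17f, with the match in capitals. In Il17a the letters stand in reverse complement and begin 120 bases before the start, and in Il17f they stand in forward orientation and begin 58 bases before it. The RefSeq start of Il17f lies inside the GENCODE gene interval and not at its 5′ end, and the distances are from the RefSeq start. A match in these letters is a description and shows no binding.
Il17a: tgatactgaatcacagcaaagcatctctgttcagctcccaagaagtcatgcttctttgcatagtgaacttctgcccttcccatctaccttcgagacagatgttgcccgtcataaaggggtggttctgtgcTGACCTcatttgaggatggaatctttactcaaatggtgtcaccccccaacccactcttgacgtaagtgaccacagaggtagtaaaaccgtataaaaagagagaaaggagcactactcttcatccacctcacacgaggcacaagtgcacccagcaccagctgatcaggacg
Il17f: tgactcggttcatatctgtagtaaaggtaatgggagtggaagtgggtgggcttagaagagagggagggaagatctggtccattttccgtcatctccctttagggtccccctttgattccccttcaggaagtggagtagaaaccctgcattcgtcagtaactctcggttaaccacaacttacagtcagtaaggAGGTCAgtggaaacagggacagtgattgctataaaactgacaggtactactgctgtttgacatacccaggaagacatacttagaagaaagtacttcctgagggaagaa

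The chosen cells carried the transcripts by which they were chosen. Trdc (ENSMUSG00000104876, chromosome 14, 54142851 to 54148868, plus strand) had a median of 6 UMIs per cell (2 to 16) in the Lyz2-icre library and 8 UMIs (2 to 35) in the control library. The CD3 genes, the signalling part of every T cell receptor, had medians of 8 UMIs (2 to 22) in Lyz2-icre and 10 UMIs (2 to 39) in control cells. These values chose the cells and are no finding. Just inside the Trdc threshold, with exactly 2 UMIs, lay 6 Lyz2-icre and 5 control cells, and 6 Lyz2-icre and 4 control cells that met all else had exactly 1. The C1q limit removed more cells from the Lyz2-icre library, since 24 Lyz2-icre and 10 control cells with enough Trdc and CD3 lay at or over it. Of genes the rule did not use, the co-receptor gene Cd4 had 2 UMIs in Lyz2-icre cells and 0 in control cells.

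Some Lyz2-icre members carried transcripts of other leukocytes. MHC class II transcripts (Cd74, H2-Aa, H2-Ab1 and H2-Eb1), which dendritic cells and macrophages carry, made up a median of 0.196% of UMIs in Lyz2-icre and 0.112% in control gamma-delta cells. In 9 Lyz2-icre cells and 1 control cell they reached at least 0.5%. Of the 9 cells 8 lay between 1.72% and 2.94%, and the ninth, at 0.634% with 1736 UMIs, lay nearer to the members below 0.5%, which reached 0.426%. These 9 cells had a median of 8853 UMIs and held 43.6% of all UMIs of the Lyz2-icre members. The macrophage marker list (10 genes) summed to 5923 CPM in them and to 1366 CPM in the other 38 Lyz2-icre cells, against 1612 CPM in the 61 other control cells. This list includes Lyz2, which differed between genotypes in macrophages too, and the C1q genes that the rule capped. Dendritic cell markers (7 genes) summed to 24 UMIs in Lyz2-icre and 1 UMI in control members, and neutrophil markers (4 genes) to 0 and 10 UMIs. NK cell markers (10 genes) summed to 1540 CPM in Lyz2-icre and 781 CPM in control members, and to 822 and 761 CPM without the class II-rich cells. Of 5 measured NK markers 2 were higher in Lyz2-icre members and 3 lower, against 43.3% and 56.7% of all measured genes. The NK list includes Tyrobp and Fcer1g, and which cell type its UMIs came from was not tested. In CD8 T cells 9.46% of Lyz2-icre and 7.60% of control cells lay over the same limit. The limit was chosen after these values were seen. Whether these barcodes held more than 1 cell was not tested, and genotype comparisons are given with and without the class II-rich cells. The median mitochondrial share was 1.02% in Lyz2-icre and 1.95% in control members.

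**Figure D1:**
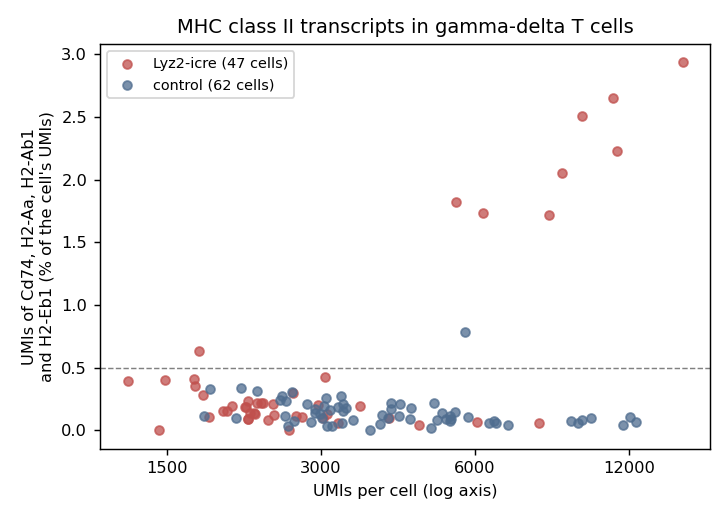
Share of each gamma-delta T cell's UMIs that came from 4 MHC class II genes (y axis, percent) against its total UMIs (x axis, log scale), for the Lyz2-icre library and the control library. The dashed line is the limit of 0.5%. Above it lie 9 Lyz2-icre cells, with a median of 8853 UMIs, and 1 control cell.

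Delta and gamma chain transcripts came with few of the alpha chain but many of the beta chain. The delta variable segment Trdv4 had a UMI in 15 of 47 Lyz2-icre cells (173 CPM) and in 34 of 62 control cells (287 CPM). No UMI of the delta segments Trdv1, Trdv2-2 or Trdv3 was found in a member of either library. Of the gamma constant genes, Trgc1 was counted at 301 CPM in Lyz2-icre and 487 CPM in control cells, Trgc2 at 100.4 and 186 CPM, and Trgc4 at 139.5 and 189 CPM. These gamma constant genes are close copies of each other, so how reads were divided among them is uncertain. The gamma variable segment Trgv6 had a UMI in 1 Lyz2-icre and 9 control cells, and Trgv2 in 7 Lyz2-icre and 9 control cells. Of the Trgv6-positive cells 1 in the Lyz2-icre library and 7 in the control library also had a Trdv4 UMI. The alpha constant gene Trac was seen in 5 of 47 Lyz2-icre and 13 of 62 control cells, at 44.6 and 98.1 CPM, against 634.5 and 577 CPM in CD8 T cells of the Lyz2-icre and control libraries. Trbc2, a beta constant gene, was seen in 32 of 47 Lyz2-icre and 49 of 62 control cells, at 402 and 644 CPM. Only 19 Lyz2-icre and 16 control cells had at most 1 UMI of Trac, Trbc1 and Trbc2 together.

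Most gamma-delta T cells were of the interleukin 17 kind. A cell was called type 17 when 10 core genes (among them Il17a, Il17f, Il17re, Il23r, Il1r1, Ccr6, Blk, Scart1 and Scart2) summed to at least 3 UMIs and to more than 10 cytotoxic core genes (Tbx21, Eomes, Ifng, Gzma, Gzmb, Prf1, Klrk1, Klrd1, Ccl5 and Nkg7). It was called cytotoxic when the second set reached 3 UMIs and at least equalled the first. By this rule 36 of 47 Lyz2-icre cells (76.6%, 62.0 to 87.7, Clopper-Pearson) and 50 of 62 control cells (80.6%, 68.6 to 89.6) were type 17. Cytotoxic cells numbered 11 in each library, and 1 control cell was neither. Of the 9 class II-rich Lyz2-icre cells 7 were type 17, and without them 29 of 38 Lyz2-icre cells and 49 of 61 control cells were. In type 17 cells the type 17 core set had a median of 10 UMIs in Lyz2-icre and 20 UMIs in control cells. At least 1 cytotoxic core UMI was found in 18 of 36 Lyz2-icre and 35 of 50 control type 17 cells, and 3 or more in 4 Lyz2-icre and 8 control cells. The reverse was rarer, with a type 17 core UMI in 1 of 11 cytotoxic cells of each library. Gzmb, the gene of granzyme B, had a UMI in 1 of 36 Lyz2-icre and 10 of 50 control type 17 cells. The classes are ranges of a count, and with a minimum of 5 core UMIs 61.7% of Lyz2-icre and 79.0% of control cells were type 17.

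**Figure D2:**
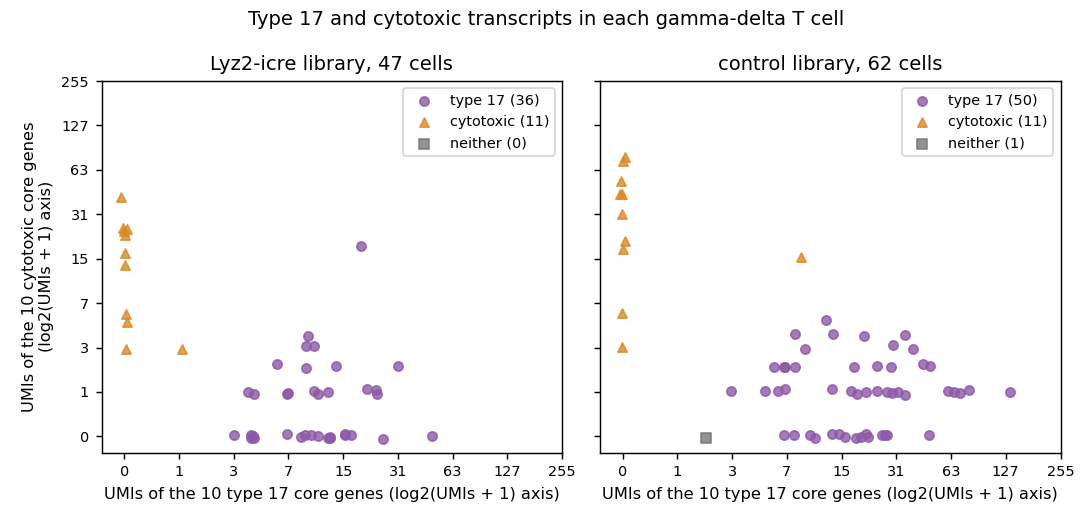
UMIs of the 10 type 17 core genes (x axis) against UMIs of the 10 cytotoxic core genes (y axis), both on a log2(UMIs + 1) axis, for each gamma-delta T cell of the Lyz2-icre library (left, 47 cells) and the control library (right, 62 cells). Points are moved slightly at random so that equal values can be seen, and colours give the class. The type 17 cells spread to the right with up to 18 cytotoxic UMIs in Lyz2-icre and 5 in control cells, and 10 of the 11 cytotoxic cells of each library sit at 0 type 17 UMIs.

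Il17a was the most abundant gene of the type 17 list. It had a UMI in 29 of 47 Lyz2-icre cells, with 0 to 45 UMIs per cell and a median of 4, and in 42 of 62 control cells, with 0 to 105 UMIs and a median of 2.5. Single cells thus ranged widely, and 1 control cell held 13.4% of the Il17a UMIs of its library's members. The summed level was 1523 CPM in Lyz2-icre and 2739 CPM in control cells. With each cell thinned to 2000 UMIs, 54.1% of 37 Lyz2-icre cells and 60.0% of 60 control cells kept an Il17a UMI. Thinned the same way, no CD8 T or natural killer (NK) cell had one, against 1 of 34 Lyz2-icre and 1 of 70 control CD4 T cells. In macrophages 0.0311% of 6438 Lyz2-icre and 0.0269% of 3722 control cells had one. Without thinning the shares of members were 61.7% in Lyz2-icre and 67.7% in control cells, at the depths given above. The median depth of the macrophages was 7382 UMIs in the Lyz2-icre and 10244 UMIs in the control library. Members held 45.8% of all Il17a UMIs in kept Lyz2-icre cells and 56.7% in kept control cells. Of the other cells with 2 or more Il17a UMIs, 24 of 32 in the Lyz2-icre library and 9 of 25 in the control library lay at or over the C1q limit. Il17f was much rarer, with 3 UMIs in 3 Lyz2-icre cells and 26 UMIs in 9 control cells, and each of these cells also had an Il17a UMI.

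The rest of the type 17 list was present at lower levels. Scart1 (ENSMUSG00000025461, chromosome 7, 140218267 to 140231145, plus strand), which encodes a scavenger receptor of interleukin 17-producing gamma-delta cells, had a UMI in 27 of 47 Lyz2-icre cells (479.9 CPM) and 43 of 62 control cells (862 CPM). Its neighbour Scart2 (chromosome 7, 140247284 to 140300736, plus strand) was seen in 3 Lyz2-icre and 7 control cells. These paralogs were found together in 0 Lyz2-icre and 2 control cells. Trdv4 went with Scart1, present in 11 of the 15 Trdv4-positive Lyz2-icre cells and 32 of the 34 in the control library, while Scart2 was present in 0 and 1 of them. Blk, a Src-family kinase used by these cells, was at 240.0 CPM in Lyz2-icre and 361 CPM in control cells. The receptor genes Il1r1 and Il23r were at 78.1 and 39.1 CPM in Lyz2-icre and 179 and 77.1 CPM in control cells. No Il22 UMI was found in either library, which at 3 counts allows up to 16.7 CPM in the Lyz2-icre library. Il2, Il4, Il13 and Il21 were at 0 as well.

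Set beside other lymphocytes of the same libraries, gamma-delta T cells had higher levels of type 17 genes. The comparison gates were CD8 T cells (317 in Lyz2-icre and 263 in control), CD4 T cells without Foxp3 (45 and 73) and NK cells (199 and 200), all without Trdc except the NK gate. Of 2766 genes at 50 CPM or more in members of both libraries, 46 (1.66%) were at least 2-fold above each of the 3 gates in both libraries, and 10 of the 13 genes of the type 17 list that reached that level were among them. After Scart1, the genes with the largest margin included Blk, Il17a and Trgc1, then Actn2, an actinin, Abi3bp and Il1r1. For Scart1 the log2 ratio over the highest gate was 5.43 in the Lyz2-icre and 6.37 in the control library, and CD8 T cells had 1.38 and 0.55 CPM. Il17a in CD4 T cells was at 70.7 CPM in Lyz2-icre and 51.2 CPM in control cells, the highest of the other gates. Genes less tied to this lineage also led, such as Igf1r, the receptor of insulin-like growth factor 1, at 128 CPM in Lyz2-icre and 207 CPM in control gamma-delta cells against 20.2 CPM in Lyz2-icre and 13.4 CPM in control CD4 T cells. The ubiquitin ligase gene Znrf1 and the metalloproteinase gene Mmp25 were also among the 15 genes with the largest margin.

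**Figure D3:**
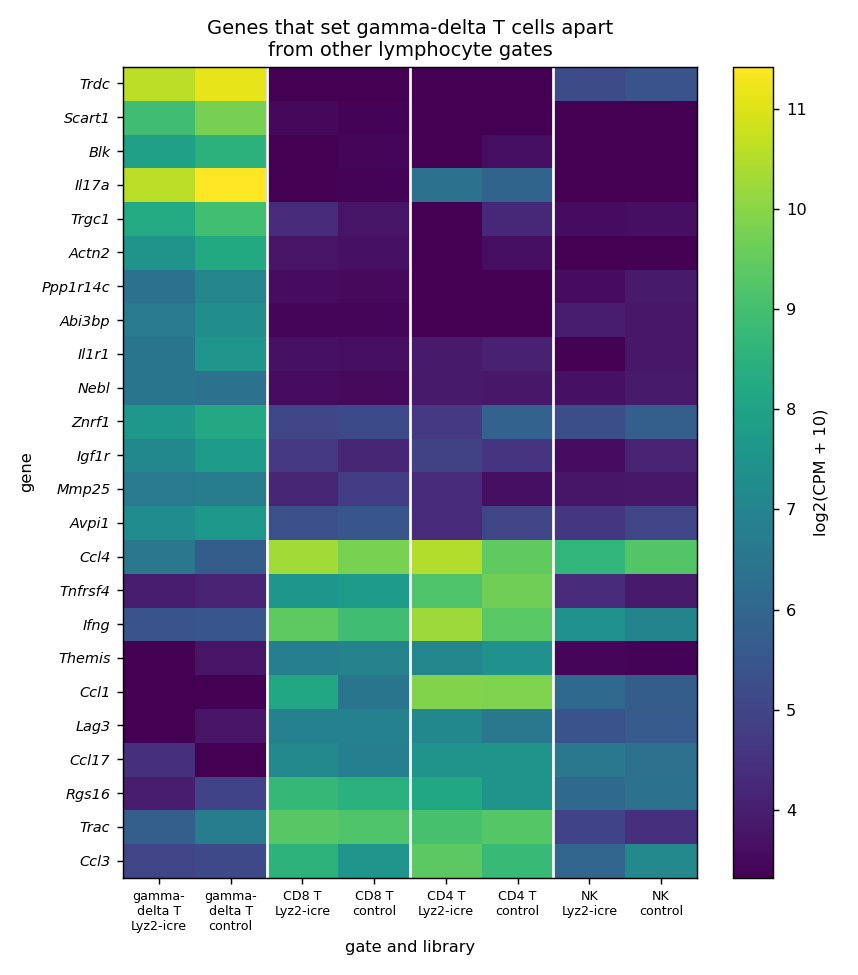
Levels of 14 of the 15 genes with the largest margin of gamma-delta T cells over every other gate (upper rows) and the 10 with the largest deficit against CD8 and CD4 T cells (lower rows), as log2(CPM + 10) in colour. Columns are gates, each with the Lyz2-icre library left of the control library. Trdc chose the cells, and Scart1 and Blk stay at or below 2.23 CPM in every other gate shown.

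Other genes were far lower in gamma-delta T cells than in CD8 and CD4 T cells. Of 2543 genes at 50 CPM or more in both the CD8 and CD4 T gates, 36 (1.42%) were at least 2-fold lower in gamma-delta T cells than in both gates in both libraries. Ifng, the gene of interferon gamma, was at 33.5 CPM in Lyz2-icre and 35.0 CPM in control gamma-delta cells, against 668 and 484 CPM in Lyz2-icre and control CD8 T cells. The chemokine gene Ccl4 was at 83.7 CPM in Lyz2-icre and 42.0 CPM in control gamma-delta cells, against 1252 and 869 CPM in CD8 T cells. Ccl1, which CD4 T cells had at 945 CPM in the Lyz2-icre and 924 CPM in the control library, was at 0 in gamma-delta cells of both. The costimulatory receptor gene Tnfrsf4 (OX40), the inhibitory receptor gene Lag3 and the T cell development gene Themis had at most 2 UMIs in the members of either library. Of the type 1 and cytotoxic list, 0 of 10 genes that reached 50 CPM in members of both libraries stood 2-fold above the gates. The share over all genes at that level was 1.66%. Trdc was excluded from the CD8 and CD4 T gates but not from the NK gate. There 21 of 199 Lyz2-icre and 36 of 200 control cells had a Trdc UMI, and 6 and 12 had 2 or more. Whether some of these were gamma-delta T cells was not tested.

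Within the gamma-delta cells, further genes separated the type 17 from the cytotoxic class beyond the core sets that defined them. These are descriptions without a test. Single type 17 cells were shallower, with medians of 2274.5 UMIs in Lyz2-icre and 3315 UMIs in control cells against 3248 and 5490 UMIs in cytotoxic cells. Summed over cells the type 17 class was deeper, with 131635 UMIs in Lyz2-icre and 203680 UMIs in control, against 47559 and 79273 UMIs in the cytotoxic class. A level of 0 in cytotoxic cells rests on these smaller sums. Igf1r was at 175 CPM in Lyz2-icre and 285 CPM in control type 17 cells, with 0 UMIs in the 11 cytotoxic cells of either library. Serpinb1a, a protease inhibitor, was at 296 CPM in Lyz2-icre and 353 CPM in control type 17 cells, against 21.0 and 0 CPM in cytotoxic cells. Tnfrsf25 (death receptor 3), the GTPase gene Igtp and Ptgs2, the gene of cyclooxygenase 2, followed the same pattern, with 0 UMIs in cytotoxic cells. Ptgs2 UMIs lay in 5 Lyz2-icre and 9 control type 17 cells, at 281 and 133 CPM. Macrophages had more or nearly as much, at 276.5 CPM in Lyz2-icre and 372 CPM in control, and control CD4 T cells had 232 CPM. Of the 9 class II-rich Lyz2-icre cells 7 were in the type 17 class, and the classes were not compared without them. The cytotoxic cells carried Xcl1, a chemokine gene of NK and CD8 T cells, at 1388 CPM in Lyz2-icre and 1489 CPM in control cells, and it had no UMI in a type 17 cell. Klrb1c, which encodes NK1.1, was at 231 CPM in Lyz2-icre and 214 CPM in control cytotoxic cells, against 0 and 4.91 CPM in type 17 cells. Cd28, Ly6c2 and Ctla2a were likewise higher in cytotoxic than in type 17 cells. The NK gate had more Xcl1 still, at 1797 CPM in Lyz2-icre and 1799 CPM in control. Cd28 was lower in the NK gate, at 152 and 141 CPM. The NK marker list summed to 2250 CPM in Lyz2-icre and 2271 CPM in control cytotoxic cells. In type 17 cells it summed to 1284 CPM in Lyz2-icre and 211 CPM in control. Whether some cytotoxic cells were NK cells was not tested. The kinase gene Lck, proximal to the T cell receptor, was at 189 CPM in Lyz2-icre and 227 CPM in control cytotoxic cells, against 7.60 and 0 CPM in type 17 cells. Gzmc had 52 UMIs in 1 of the 11 Lyz2-icre cytotoxic cells and 305 UMIs in 6 of the 11 control cytotoxic cells.

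Gamma-delta T cells took a smaller share of the Lyz2-icre library. They were 0.338% of kept cells there (0.248 to 0.449) and 0.711% in the control library (0.545 to 0.910), a ratio of 0.475 (0.318 to 0.706). Macrophages by their C1q transcripts made up 6805 of these kept cells in Lyz2-icre and 3857 in control. Other lymphocytes had lower shares of kept cells as well, with ratios of 0.756 for CD8 T, 0.386 for CD4 T and 0.624 for NK cells. Among kept cells below the C1q limit, gamma-delta cells had a ratio of 0.661 (0.442 to 0.981). The ratios there were 1.05 for CD8 T, 0.537 for CD4 T and 0.867 for NK cells. The shares leave out the 24 Lyz2-icre and 10 control cells with enough Trdc and CD3 that lay at or over the C1q limit. Among T cells (kept cells with at least 2 CD3 UMIs and below the C1q limit) gamma-delta cells were 47 of 661 in Lyz2-icre (7.11%) and 62 of 659 in control (9.41%), a ratio of 0.756 with an interval that includes 1 (0.506 to 1.12). With class II-rich cells left out of members and T cells alike, gamma-delta cells were 38 of 574 in Lyz2-icre and 61 of 596 in control, a ratio of 0.647 (0.420 to 0.986). Over all kept cells below that limit they were 38 of 2485 in Lyz2-icre and 61 of 3126 in control, a ratio of 0.784 (0.508 to 1.19). Fewer gamma-delta cells and fewer Trdc and CD3 transcripts per cell cannot be told apart here, since the rule counts these UMIs and Lyz2-icre members had fewer UMIs.

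The ratio among T cells lay above 1 in female and below 1 in male cells. Cells of both sexes were present in each library, told apart by Xist, which female cells express, and by 4 Y-linked genes. Among T cells with Xist and no Y-linked UMI, 37 of 389 Lyz2-icre cells (9.51%) and 37 of 419 control cells (8.83%) were gamma-delta, a ratio of 1.08 (0.664 to 1.75). Among T cells with a Y-linked UMI and no Xist, 3 of 111 Lyz2-icre cells (2.70%) and 14 of 126 control cells (11.1%) were gamma-delta, a ratio of 0.243 (0.0448 to 0.872). The 3 male Lyz2-icre cells were called cytotoxic, 1 of them on exactly the minimum of 3 cytotoxic core UMIs, and the 14 male control cells were called type 17. No sex was assigned to T cells with both kinds of transcript (38 in Lyz2-icre and 55 in control) or with neither (123 and 59). Female type 17 cells numbered 31 of 37 in Lyz2-icre (83.8%) and 27 of 37 in control (73.0%). The number of mice of each sex is not given in the sources used here, and the difference between sexes was not tested.

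**Figure D4:**
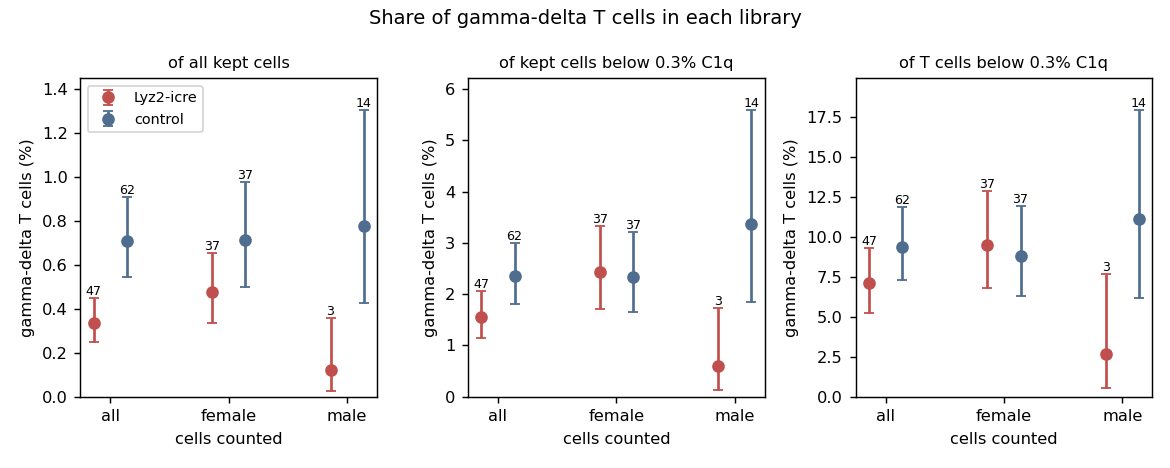
Gamma-delta T cells as a percentage of kept cells (left), of kept cells below the C1q limit (middle) and of T cells (right), for all cells and for cells assigned as female or male by Xist and Y-linked transcripts. Points are the Lyz2-icre library (left of each pair) and the control library, bars are 95% Clopper-Pearson intervals, and the numbers are gamma-delta cells. Of T cells the female shares are 9.51% and 8.83%, and the male shares 2.70% and 11.1%.

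Between genotypes, 6088 genes were measured in gamma-delta T cells (at least 10 UMIs in at least 5 cells over both libraries). Log2 ratios are Lyz2-icre over control with 10 CPM added to both. Of these genes 307 (5.04%) were at least 2-fold higher and 394 (6.47%) at least 2-fold lower in Lyz2-icre cells, and the median log2 ratio was -0.09. When the class II-rich cells were left out, 179 of 5436 measured genes (3.29%) were higher and 558 (10.3%) lower. Of the 307 higher genes 155 were still measured and 62 higher there, and of the 394 lower genes 382 were still measured and 250 lower. With 50 CPM added in place of 10 the counts over all cells were 100 higher and 26 lower.

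The 12 genes named as higher in Lyz2-icre cells were all detected in macrophages of the same library, at 87.9 to 5755 CPM. Mmp12, the gene of macrophage elastase, was at 402 CPM in Lyz2-icre and 17.5 CPM in control cells (log2 3.90), with its 72 Lyz2-icre UMIs in 8 cells. The neutrophil-attracting chemokine gene Cxcl2 was at 2919 CPM in Lyz2-icre and 539 CPM in control cells (log2 2.41), and the interleukin 1 beta gene Il1b at 843 and 175 CPM (log2 2.20). Cst3, the gene of cystatin C, was at 2366 CPM in Lyz2-icre and 354 CPM in control cells (log2 2.71). The class II-rich cells held 86.4% of the UMIs of the 12 named genes (with Cxcl1, Thbs1, Fabp5, Osm, Cd9, Vegfa, Dusp3 and Nampt) in Lyz2-icre members. Without these cells the log2 ratio was -0.43 for Il1b, -0.17 for Cst3 and -0.27 for the lipid carrier gene Fabp5. That of Mmp12 was 1.87 but rested on 4 UMIs in Lyz2-icre and 1 UMI in control cells. That of Cxcl2 was 1.68, with 99 of 135 UMIs in 1 cytotoxic Lyz2-icre cell, and without this cell it was -0.14. In CD8 T cells the log2 ratios of the 12 genes lay between -0.78 and 0.90.

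The macrophage marker list moved with them. Of 8 measured markers 8 were higher in Lyz2-icre cells and 4 at least 2-fold, against 43.3% and 5.04% of all genes. Their median log2 ratio was 1.03, against -0.09 over all genes. The summed list was at 3354 CPM in Lyz2-icre cells (0 to 14380 CPM per cell) and 1748 CPM in control cells (354 to 8376 CPM per cell). Lyz2 had 181 UMIs in 19 Lyz2-icre cells, of which 1 cell held 60.8%, and 176 UMIs spread over 57 control cells. With the class II-rich cells left out, 0 of 5 measured markers were 2-fold higher and 1 was 2-fold lower (Lyz2), against 3.29% and 10.3% of all genes. The median was then -0.02. Lyz2 also differed in macrophages thinned to 2000 UMIs, with a UMI in 78.2% of 6438 Lyz2-icre and 99.7% of 3722 control cells. The list further holds C1qa, C1qb and C1qc, which the rule capped, so it is no neutral measure between genotypes. Spp1 had 15 UMIs in 2 Lyz2-icre cells, 14 of them in 1 cell, and 26 UMIs in 17 control cells.

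**Figure D5:**
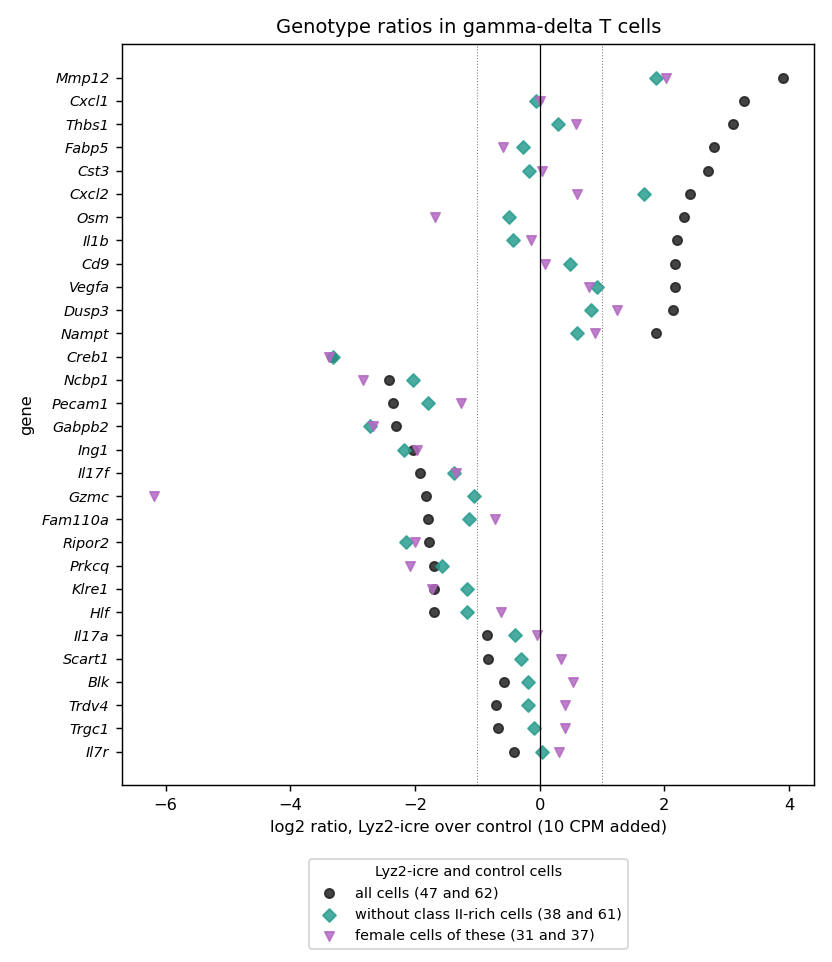
Log2 ratio of Lyz2-icre over control (x axis, 10 CPM added) for the 12 genes named as higher, the 12 named as lower and 6 type 17 and receptor genes (rows), in all gamma-delta T cells, without the class II-rich cells, and in the female cells among the rest. Dotted lines mark 2-fold. Il1b lies at 2.20 with all cells and at -0.43 without the class II-rich cells, and Creb1, with 0 UMIs in Lyz2-icre cells, lies at -3.34 and -3.31, values that depend on the 10 CPM added.

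Type 17 genes were mostly lower in Lyz2-icre cells, by less than 2-fold. Of 18 measured genes of the list 16 were lower and 4 at least 2-fold lower, with a median log2 ratio of -0.77, against 56.7% lower and 6.47% at least 2-fold lower over all measured genes. Il17a had a log2 ratio of -0.84 (ratio of CPM 0.56, 0.48 to 0.64), Scart1 of -0.83 and Blk of -0.57. The 4 genes past 2-fold were Il17f (log2 -1.92), the nuclear receptor gene Rora (-1.29), the transcription factor gene Sox13 (-1.20) and Il1r1 (-1.10). Without the class II-rich cells 12 of 18 were lower and 3 at least 2-fold, with a median of -0.28, against 54.5% and 10.3% of all genes. Il17a was then at 2128 CPM in Lyz2-icre and 2788 CPM in control cells (log2 -0.39). In the female cells among these, Il17a had a log2 ratio of -0.04, Scart1 of 0.34 and Blk of 0.53.

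Rora was at 296 CPM in 24 of 47 Lyz2-icre cells and at 739 CPM in 44 of 62 control cells, and without the class II-rich cells at 346 CPM in Lyz2-icre and 751 CPM in control cells (log2 -1.09, ratio 0.46, 0.31 to 0.66). Of 15 measured transcription factor genes 12 were lower and 5 at least 2-fold lower in Lyz2-icre cells (median -0.67). Over all measured genes these shares were 56.7% and 6.47%. Without the class II-rich cells 10 of 14 were lower and 4 at least 2-fold (median -0.39), against 54.5% and 10.3% of all genes. Besides Rora and Sox13 the 5 genes included Zbtb16, which encodes PLZF, at 27.9 CPM in Lyz2-icre and 102 CPM in control cells. Batf was another, with 1 UMI in Lyz2-icre and 19 UMIs in control cells. Rora was also lower in the other lymphocytes, at 67.0 CPM in Lyz2-icre and 111 CPM in control CD8 T cells, 162 and 292 CPM in CD4 T cells and 66.4 and 90.1 CPM in NK cells. Whether the gamma-delta difference is larger was not tested. Maf, needed for interleukin 17-producing gamma-delta cells in mice, differed less, at 497 CPM in Lyz2-icre and 603 CPM in control cells.

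The genes named as lower in Lyz2-icre cells had few UMIs each. Creb1, the gene of the cyclic AMP-responsive factor CREB, had 0 UMIs in 47 Lyz2-icre cells and 26 UMIs in 18 of 62 control cells. The interval of its ratio of CPM ran from 0 to 0.243. Set against a floor of 3 counts in the Lyz2-icre library, the control level was 5.44-fold higher. In CD8 T cells Creb1 was at 56.7 CPM in the Lyz2-icre and 57.8 CPM in the control library. Ncbp1, a cap-binding protein gene, had 1 UMI in Lyz2-icre and 21 UMIs in control cells, and the adhesion gene Pecam1 2 and 28 UMIs. Prkcq, which encodes protein kinase C theta of the T cell receptor pathway, had 3 UMIs in Lyz2-icre and 22 UMIs in control cells. Gabpb2, Ing1, Fam110a, Ripor2, Klre1 and Hlf completed the list with 3 to 6 UMIs each in Lyz2-icre and 22 to 40 UMIs in control cells. Without the class II-rich cells the 12 log2 ratios lay between -3.31 and -1.05. The 12 genes were picked as the lowest of 125 candidates in mostly the same cells, so this range is no independent check. With each cell thinned to the same number of UMIs, the log2 ratios of Gzmc, Klre1 and Hlf were positive. Gzmc, one of the 12, followed single cells, with 53 UMIs in 2 Lyz2-icre cells and 306 UMIs in 7 control cells.

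Of 9 checkpoint receptor genes 4 were measured. Pdcd1, the gene of PD-1, was at 67.0 CPM in 10 of 47 Lyz2-icre cells and 193 CPM in 27 of 62 control cells (log2 -1.40). Ctla4 was at 61.4 CPM in 7 Lyz2-icre cells and 172 CPM in 19 control cells (log2 -1.35). In CD8 T cells Pdcd1 was at 210.1 CPM in Lyz2-icre and 302 CPM in control cells. Of the 4 measured genes 4 were lower (56.7% of all genes), 3 of them at least 2-fold (Pdcd1, Ctla4 and Cd160, against 6.47% of all genes), with a median of -1.33. Without the class II-rich cells 4 of 4 were lower and 2 at least 2-fold (median -0.84), against 54.5% and 10.3% of all genes. Pdcd1 was then at 89.1 CPM in Lyz2-icre and 197 CPM in control cells (ratio 0.45, 0.20 to 0.92).

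The type 1 and cytotoxic list differed little in its middle. Of 18 measured genes 13 were lower, 2 of them at least 2-fold (Gzmc and Tbx21), against 56.7% and 6.47% of all genes. The median log2 ratio was -0.18, and without the class II-rich cells the median was 0.23. The chemokine gene Ccl5 was at 463 CPM in Lyz2-icre and 364 CPM in control cells. Nkg7, a cytotoxic granule protein gene, was at 189.7 CPM in Lyz2-icre and 319 CPM in control cells, in 9 and 11 cells. Gzmb had 14 UMIs in 5 Lyz2-icre cells, 10 of them in 1 cell, and 39 UMIs in 17 control cells. Gzma rested on 1 control cell, which held 41 of 41 UMIs, with 2 UMIs in the Lyz2-icre cells.

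Among cytokine receptors, Il7r, the receptor gene for the survival factor interleukin 7, was at 603 CPM in Lyz2-icre and 809 CPM in control cells (log2 -0.42), and at log2 0.03 without the class II-rich cells. Of 12 measured list genes 11 were lower and 2 at least 2-fold lower (Il1r1 and Il12rb1), against 56.7% and 6.47% of all genes. The median was -0.50. Without the class II-rich cells 0 of 12 were past 2-fold, against 3.29% higher and 10.3% lower of all genes. The median was then -0.18. Chemokine receptor transcripts were led by Ccr2, at 614 CPM in 39 Lyz2-icre and 802 CPM in 53 control cells, and Cxcr6, at 508 and 823 CPM. Ccr6, often used to mark interleukin 17-producing gamma-delta cells, had 0 UMIs in Lyz2-icre and 5 UMIs in control cells. Tissue retention genes were abundant in both genotypes, with Rgs1 at 1998 CPM in Lyz2-icre and 1902 CPM in control cells and Cd69 at 608 and 890 CPM. Within gamma-delta cells Cxcr6 was at 623 CPM in Lyz2-icre and 1100 CPM in control type 17 cells, against 189 and 139 CPM in cytotoxic cells. The residency list had 0 of 7 measured genes past 2-fold in either direction, against 11.5% of all genes. Areg, the gene of the repair factor amphiregulin, had 68 UMIs in 8 Lyz2-icre cells, of which 1 cell held 46, and 57 UMIs in 14 control cells.

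Immediate early genes, which respond to stimulation and to handling of the tissue, were partly higher in Lyz2-icre cells. Of 11 measured genes 9 were higher and 2 at least 2-fold (Fos and Hspa1a), against 43.3% and 5.04% of all genes. The median of the list was 0.44. Fos was at 1507 CPM in Lyz2-icre and 729 CPM in control cells (log2 1.04), and without the class II-rich cells at 1039 CPM in Lyz2-icre and 686 CPM in control cells (log2 0.59). The median of the list was then 0.12. Hspa1a, a heat shock protein gene, had 43 UMIs in 2 Lyz2-icre cells and 5 UMIs in 5 control cells. Junb, the most abundant of the list, was at 3142 CPM in Lyz2-icre and 3090 CPM in control cells. Of 12 cell cycle genes 10 were lower and 3 at least 2-fold lower in Lyz2-icre cells, with a median of -0.49, against 56.7% and 6.47% of all genes. Without the class II-rich cells 9 were lower and 2 at least 2-fold (54.5% and 10.3% of all genes), with a median of -0.50. Mki67, a marker of dividing cells, had a UMI in 7 of 47 Lyz2-icre and 16 of 62 control cells (156 and 364 CPM). The interferon response list had a median of 0.01 over 10 measured genes. Ifi27l2a was at least 2-fold higher and Isg15 at least 2-fold lower, 1 gene each way, against 5.04% and 6.47% of all genes.

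Receptor signalling genes were slightly lower, with a median of -0.42 and 10 of 12 below control, against 56.7% of all genes. Of these 12 genes 0 were at least 2-fold lower and 1 at least 2-fold higher (Syk, 7 and 4 UMIs). Over all genes these shares were 6.47% and 5.04%. Without the class II-rich cells the median was 0.07. Costimulatory genes had a median of -0.05 over 6 measured genes and of 0.43 without the class II-rich cells, with Icos at 619 CPM in Lyz2-icre and 739 CPM in control cells. Genes of osteopontin receptors, with Spp1 itself in the same list, were measured because Spp1 is the deleted gene. Of 6 measured genes of that list, Spp1 among them, 0 were past 2-fold, against 11.5% of all genes. Cd44 was at 463 CPM in Lyz2-icre and 406 CPM in control cells. Naive and memory genes had 0 of 6 past 2-fold, against the same 11.5%. Receptor segment genes, of which 7 were measured, had a median of -0.67. Trgv6 was the 1 gene at least 2-fold lower, at 1 and 10 UMIs, against 6.47% of all genes.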

How the data were processed

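Single-cell RNA was measured in CD45-positive cells of MC38 tumours, in 1 library per genotype. Per the submitters' processing notes, reads were demultiplexed with bcl2fastq 5.0.1 and counted on mm10 with Cell Ranger, version 8.0.1 per the file headers. The authors deposited UMI counts, unnormalised and one matrix per library, for called cells, so free RNA could not be estimated, and these counts were used as deposited. Annotation release and mice per library are not given in the sources used here.

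Members, gene lists and alternatives were chosen with earlier results of these data known. Members and gates were taken by UMI thresholds (CD8 T cells by CD3 and CD8 genes, CD4 T cells by CD3 and Cd4, NK cells by Ncr1 and Klrb1c without CD3, macrophages by at least 1% C1q UMIs without CD3) in Python 3.11.15 (numpy 2.4.6, scipy 1.17.1, pandas 2.3.3). No doublet caller was used, and class II-rich members were treated as an alternative, chosen after seeing the data. UMIs were summed per library and class. Ratios have exact conditional binomial intervals and shares Clopper-Pearson intervals. With 1 library per genotype there was no test. Symbols of 2 list genes were changed to those in the files, matched on gene ID. Shares of cells with a UMI were also read after thinning each cell to 2000 UMIs, which left out 10 Lyz2-icre and 2 control members. The scripts were tested on simulated data.

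Named between genotypes were the 12 highest and 12 lowest log2 ratios among measured genes past 2-fold with an interval clear of 1. They needed at least 20 UMIs in at least 5 members of the higher library, and 0.5 of the level over all its kept cells. Against other lymphocytes the rule took the 15 largest margins (members at 50 CPM or more, UMIs in at least 10% of members of each library) and the 10 largest deficits, and between classes 10 and 10. Mitochondrial, ribosomal protein, segment, sex-linked and numbered genes, Spp1 and Lyz2 were left out of these rankings. The level of 1 type 17 core gene is not reported here.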

Additional observations from a re-analysis of the deposited data

Results flagged for a closer look

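2 results had opposite directions in the sexes, and the difference between sexes was not tested in either. The share of gamma-delta cells among T cells had a Lyz2-icre over control ratio of 1.08 in female and 0.243 in male cells, the second resting on 3 Lyz2-icre and 14 control cells. The type 17 share of gamma-delta cells was higher by 10.8 percentage points in female Lyz2-icre cells, and its Lyz2-icre minus control difference was -100.0 percentage points in male cells (0 of 3 Lyz2-icre and 14 of 14 control cells).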

How the results depend on the processing

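No paired analysis was possible because there was 1 library per genotype, so no replicate could be left out either. Depth limits single genes, since members held 179194 UMIs in the Lyz2-icre and 285479 UMIs in the control library. The share ratio of 0.475 became 0.745 with at most 1 alpha-beta receptor UMI (19 Lyz2-icre and 16 control cells) and 0.157 in male cells, with class II-rich cells left out of the members alone it was 0.391, and left out of all kept cells 0.784. Among T cells these were 0.629 (0.408 to 0.958) and 0.647. The ratio among T cells turned to 1.18 with at most 1 alpha-beta receptor UMI and to 1.08 in female cells, and was 0.243 in male cells. The type 17 share was 0.00% in Lyz2-icre and 100% in control male cells, and 61.7% in Lyz2-icre cells with a core minimum of 5 UMIs. The count of 701 genes past 2-fold (307 higher, 394 lower) became 126 with 50 CPM added (100 higher, 26 lower) and 1688 with no low-count filter (837 higher, 851 lower). With median-of-ratios scaling 362 were higher and 330 lower, in cells thinned to 2000 UMIs 145 and 327, and without the class II-rich cells 179 and 558. That count could not be made in male cells.

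Of 660 log2 ratios of named genes under the alternatives, 500 stayed within their counting interval, 127 moved out of it and 33 of genes past 2-fold changed sign. Without the class II-rich cells these were Cxcl1 (-0.059), Fabp5 (-0.27), Cst3 (-0.17), Osm (-0.49) and Il1b (-0.43). With 1 further Lyz2-icre cell left out they were Cxcl1 (-0.029), Fabp5 (-0.22), Cst3 (-0.17), Cxcl2 (-0.14), Osm (-0.46) and Il1b (-0.57), and in the female cells below the class II limit Fabp5 (-0.59), Osm (-1.69) and Il1b (-0.14). In thinned cells they were Cxcl1 (-0.13), Osm (-1.65), Il1b (-2.38), Nampt (-0.16), Fos (-0.34), Gzmc (0.39), Klre1 (0.59) and Hlf (0.59). In type 17 cells below the class II limit they were Cxcl1 (-0.035), Thbs1 (-0.30), Fabp5 (-0.49), Cst3 (-0.10), Cxcl2 (-0.49), Osm (-1.59), Il1b (-1.17), Apoe (-0.070) and Gzmc (0.71). Gzmc also changed sign in all type 17 cells (0.24) and with at least 3 Trdc UMIs (1.10). The cause was not tested.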
